A study of Mus musculus with 8 samples.

Results

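The clustered histone genes make the histones that package new DNA each time a cell divides. Each gene encodes a linker histone (H1) or a core histone (H2A, H2B, H3 or H4), most lie in tightly packed clusters, and their transcripts are made in S phase and end in a stem-loop in place of a poly(A) tail. A few members are testis-type: Hist1h1t, Hist1h2ba and Hist1h2aa encode linker and core histones that replace the replication-dependent ones in spermatocytes before protamines take over in the sperm head. Methylation of cytosines in CpG dinucleotides near a gene start is a mark that is often found at silent promoters and is mostly absent from CpG islands of active genes.

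The members were taken from the authors' table of promoter cytosines as the genes whose symbol starts with Hist1h, Hist2h, Hist3h or Hist4h. The table spells most of these genes by newer symbols, and the pattern found only 1 gene with 2 cytosines when it was applied to them directly. It was therefore applied to the older GENCODE M21 symbol of each gene identifier, which gave 17 genes of 9224 and 173 cytosines of 203645. In that annotation 67 protein-coding genes carry such a symbol, so that 50 of them had no cytosine in the table. There were 2 of 6 genes for H1, 4 of 18 for H2B, 5 of 12 for H3, 6 of 13 for H4 and 0 of 18 for H2A. The large Hist1 cluster on chromosome 13 held 12 of the 17 genes, the Hist2 cluster on chromosome 3 held 4, and the Hist3 cluster on chromosome 11 held 1.

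None of the testis-type genes had a cytosine in the table, and the comparison of testis-type with replication-dependent genes could not be made. The 1000 bases upstream of Hist1h1t (chr13:23695814-23696725, + strand), Hist1h2ba (chr13:23933773-23934156, − strand) and Hist1h2aa (chr13:23934462-23934851, + strand) held 2, 2 and 5 copies of the sequence that MspI cuts. The 17 members carry none of the testis-type symbols. Most belong to the replication-dependent genes, and H2bc21 encodes a variant that is also made outside S phase.

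The cells were germline stem (GS) cells, cultured spermatogonia with stem cell activity, grown from CD9-sorted cells of mature testes of B6 F1 mice, with the genotype labelled WT and no treatment. There were 4 lines from control-F1 mice, which were sired by natural mating (29, 37, 44 and 45), and 4 lines from ICSI-F1 mice, which came from intracytoplasmic injection of sperm (11, 17, 20 and 21). The study calls this sperm wild-type and took it from untreated green mice, which carry a transgene for green fluorescent protein. Each line was 1 library of reduced representation bisulfite sequencing, in which DNA is cut by MspI and unmethylated cytosines are converted. The comparison asks whether the promoters of ICSI-F1 GS cells carry another methylation level than those of control-F1 GS cells. By the read numbers in the study's methods, lines 29, 37, 11 and 17 were taken as library set 1. Lines 44, 45, 20 and 21 were taken as library set 2, and each set holds both groups. This grouping was inferred, and the sample titles do not state it.

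The median depth over the member cytosines was 42 to 82 reads per line, and the lowest was 10 reads. Methylation levels ran higher in library set 2: over all 203645 cytosines the 4 lines of set 1 had mean levels of 6.14% to 6.88%, and those of set 2 had 8.24% to 9.26%. The identity of the cells was not checked from expression, since the files used here hold methylation only. Of 19 germ cell genes, 10 had promoter cytosines in the table. Of the 10, 8 had a level under 10%, beside 73.7% of all 9224 promoters. The highest of the 10 was Lin28a, an RNA-binding protein of undifferentiated spermatogonia, at 24.1%. Its level was 2.09% over cytosines outside the sequence that MspI cuts. Of 12 fibroblast or somatic testis genes only 3 were in the table, Sox9 at 5.60%, Col1a1 at 19.9% and Col1a2, a fibroblast collagen gene, at 76.2%. Outside the MspI sequence they were at 2.39%, 6.41% and 78.2%.

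The clustered histone promoters were mostly unmethylated. Over the 8 lines, 150 of the 173 cytosines (86.7%) had a mean level under 10%, against 88.0% of all promoter cytosines. Averaged per promoter, 12 of the 17 genes lay under 10%, beside 73.7% of all 9224 promoters. Their median was 5.97%, against 5.64% over all promoters. A promoter level here is the unweighted mean of the levels of its cytosines. The highest promoter levels were at H1f5 (Hist1h1b, 51.1%), H2bc21 (Hist2h2be, 43.97%), H2bc12 (Hist1h2bk, 36.1%), H4c9 (Hist1h4i, 18.4%) and H4c14 (Hist2h4, 12.4%). The lowest were at H3c14 (Hist2h3c1, 0.101%), H3c15 (Hist2h3c2, 0.431%) and H4c3 (Hist1h4c, 0.611%). By type, the H3 promoters ranged from 0.101% to 6.30% and the H4 promoters from 0.611% to 18.4%, while the H2B promoters spread from 2.06% to 43.97%.

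**Figure D1:**
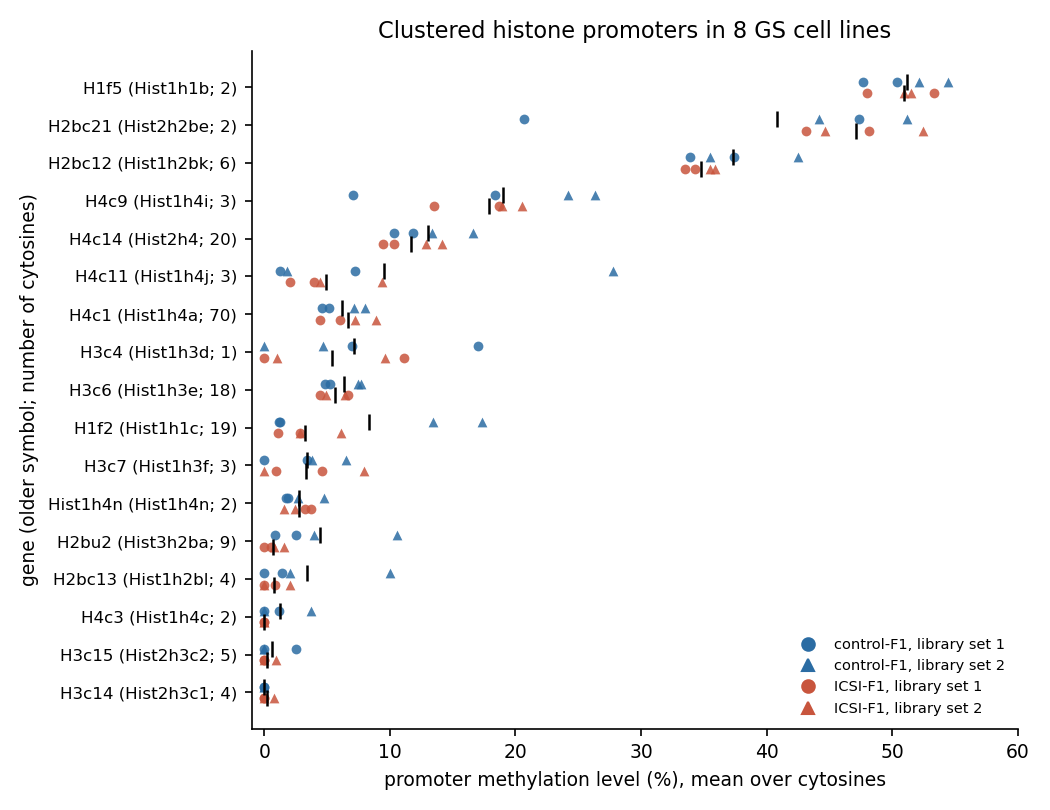
Promoter methylation level (%, x axis) of the 17 clustered histone genes (y axis, with the older symbol and the number of cytosines) in each GS cell line; colours are the groups, circles library set 1, triangles library set 2, and black ticks the group means of 4 lines. Most genes sit under 10%, the groups overlap at each gene, and line 37 of the control-F1 group stands at 20.7% at H2bc21 where the other lines lie between 43.1% and 52.5%.

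By the mm10 annotation the member cytosines were intergenic, except those of H3c14, which lay in an exon of Gm20634, and 4 of H4c14 in an exon of Gm38227. The high promoter levels came from single cytosines, and these all lay in one sequence. All 20 member cytosines with a mean level of 20% or more were in CCGG, the sequence that MspI cuts. They were 20 of the 42 member cytosines in CCGG, and came from 7 of the genes. The other 131 member cytosines had a mean level of 2.39%, and the highest of them reached 9.62%. Over the whole table, 49.4% of 34804 cytosines in CCGG and 2.00% of 168841 others were at 20% or more, so that this contrast was not particular to histone genes.

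**Figure D2:**
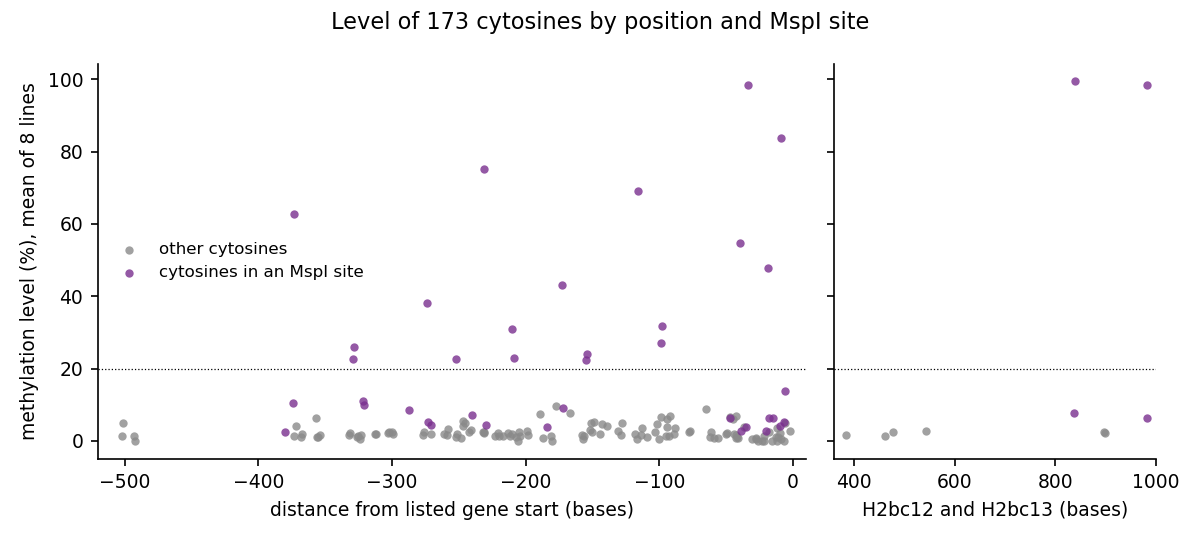
Methylation level (%, mean of 8 lines, y axis) of the 173 member cytosines against their distance from the listed gene start (x axis, bases, negative upstream); purple points lie in an MspI site and grey points do not, and the dotted line marks 20%. Each point above the line is purple, and the right panel holds the cytosines of H2bc12 and H2bc13, which lie downstream of the gene start.

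Cytosines on opposite strands of the same CpG differed widely in this sequence. Of 57 member CpGs read on both strands, 7 (12.3%) had mean levels over 50 percentage points apart, against 3.7% of 80703 CpGs in the table. All 7 were among the 15 member CpGs in CCGG, where the share over the table was 27.4% of 10914. The difference was not found outside this sequence, at 0 of 42 member CpGs and 0 of 69789 in the table. CpG methylation is normally copied to both strands after replication. The strand with the low level was read more deeply at 6 of the 7, with a median of 69.5 to 101.5 reads per line against 24.5 to 39.5 on the strand with the high level. The part of the MspI cut in these levels was not tested.

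The 7 CpGs with unequal strands and 2 further high cytosines, whose opposite strand was not in the table, are given because they carry nearly all the high promoter values. Sequences are from the RefSeq genome of build GRCm38 (mm10), 30 bases on the + strand, with the MspI sequence in capitals.
H1f5, chr13:21780645-21780674: tggtttatataagCCGGtgctgggctgtga
H2bc12, chr13:22036694-22036723: tagcttacaagatCCGGtctcctgttaaaa
H2bc12, chr13:22036838-22036867: tgcctgtttgaggCCGGtctagtctaccga
H3c6, chr13:23562585-23562614: ctgtttggtaagcCCGGagacatttcacag
H4c1, chr13:23761255-23761284: gaaaacccgcccgCCGGacggtgacgtcat
H2bc21, chr3:96221095-96221124: gggctcaagtcctCCGGgtccctggttgat
H4c14, chr3:96263670-96263699: tgcactgaagggcCCGGagctcctgttagg
H4c9, chr13:22041366-22041395: tttgtggagaaggCCGGtccctcttatagg
H4c14, chr3:96263412-96263441: ctttctaaattatCCGGgctctggatgttg

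H1f5 encodes a linker histone. Its 2 cytosines belong to the same CpG, 34 and 35 bases upstream of the gene start. On the + strand the level was 100%, 95.3%, 100% and 95.5% in control-F1 lines 29, 37, 44 and 45 and 96.0%, 100%, 100% and 100% in ICSI-F1 lines 11, 17, 20 and 21. On the − strand it was 0% to 13.4% in the 8 lines. The promoter level near 50% was thus the average of a nearly full and a nearly empty strand, in every line.

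H2bc12 encodes an H2B histone. Its 6 cytosines lay 838 to 983 bases downstream of the gene start and past the listed end of the gene, in intergenic sequence. Of its 2 CpGs with unequal strands, the − strand of the nearer one had 95.3% to 100% and the + strand of the farther one 95.2% to 100% in the 8 lines. The opposite strands had 0% to 32.7% and 1.23% to 14.2%. The 32.7% was in control-F1 line 44 only, the next highest being 12.2% in line 29.

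H2bc21 encodes the H2B variant H2BE, known from olfactory neurons. Its single CpG was 9 to 10 bases upstream of the gene start, in a CpG island. The − strand had 93.8%, 30.2%, 95.7% and 86.7% in control-F1 lines 29, 37, 44 and 45 and 82.4%, 96.3%, 95.2% and 89.4% in ICSI-F1 lines 11, 17, 20 and 21. Line 37 was apart from the other 7 lines, with 7 methylated of 23 reads (95% exact binomial interval 13.2% to 52.9%). Without line 37 the ICSI-F1 minus control-F1 difference at this cytosine went from 14.2 to −1.24 percentage points. Intervals and limits of this kind cover counting error only. They take each read as separate, and double counting of read mates was not tested.

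Both strands of most CpGs in the CpG island upstream of H4c1 (Hist1h4a) were read, and this gene gave 70 of the 173 cytosines. H4c1 encodes the core histone H4. Of its 14 cytosines in CCGG, 11 were at 20% or more, whereas its 56 others ranged from 0% to 5.34% (median 1.90%). The highest, 40 bases upstream on the − strand, was at 56.1%, 14.1%, 48.6% and 67.6% in control-F1 lines 29, 37, 44 and 45. In ICSI-F1 lines 11, 17, 20 and 21 it was at 48.2%, 29.7%, 79.3% and 94.6%. The groups overlapped, with both ICSI-F1 lines of library set 2 above all others. The other 10 cytosines lay between 22.3% and 38.1%.

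H4c14 (Hist2h4) and H4c9 also encode histone H4. At H4c14 the cytosine 373 bases upstream on the + strand had 50.5%, 18.1%, 74.4% and 82.5% in the control-F1 lines and 55.4%, 55.3%, 78.7% and 86.7% in the ICSI-F1 lines, in the order used above. On its opposite strand line 37 had 57.7% and the other 7 lines had 0% to 8.93%, so that the strands were reversed in line 37. The H4c14 cytosine 116 bases upstream had 31.1% in line 37 and 58.3% to 97.1% in the others. The H4c9 cytosine 19 bases upstream had 10.7% in line 37 and 36.9% to 62.5% in the others.

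The H3c6 (Hist1h3e) promoter had 18 cytosines and a high one 231 bases upstream. Its level was 66.7%, 52.9%, 87.5% and 85.4% in the control-F1 lines and 67.4%, 64.5%, 82.2% and 94.1% in the ICSI-F1 lines. H3c6 encodes histone H3. Its 15 cytosines outside CCGG had a mean level of 1.58%.

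**Figure D3:**
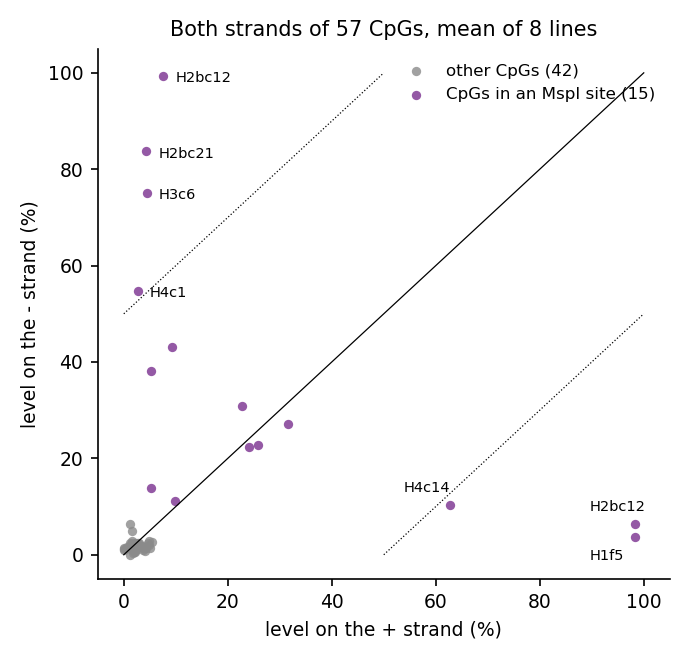
Methylation level (%, mean of 8 lines) on the + strand (x axis) and the − strand (y axis) of the 57 member CpGs read on both strands; the solid line marks equal levels and the dotted lines a gap of 50 percentage points. The 7 labelled CpGs lie beyond the dotted lines and are all in an MspI site, and the 42 grey CpGs outside such sites stay near the origin.

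Line 37 was low at most of the high cytosines. Of the 10 member cytosines in CCGG with a mean level of 40% or more, line 37 was the lowest of the 8 lines at 8. Its mean over the 10 was 50.2%, against 69.3% to 83.8% in the other 7 lines. The same line was alone in being lowest at 49.4% of the 7325 such cytosines in the table, so that its position was not particular to histone genes. The ICSI-F1 mean was the higher one at 9 of the 10 with all lines and at 3 without line 37. The differences at these 10 cytosines were −0.907 to 16.3 percentage points with line 37 and −11.1 to 5.51 without it.

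At the other end were the genes for histone H3 in the Hist2 cluster. H3c14 had 0% in 7 lines and 0.806% in ICSI-F1 line 21, over 4 cytosines 7 to 28 bases upstream. H3c15 had 0% in 6 lines, 2.54% in control-F1 line 37 and 0.909% in ICSI-F1 line 21, over 5 cytosines. Added over the cytosines of a promoter, the read numbers at 0% allow shares of up to 1.158% to 3.75% at H3c14 and 0.840% to 3.45% at H3c15. These limits take the reads of each cytosine as separate. They would be wider if the same reads cover neighbouring cytosines, which was not tested. The lowest depth at a single cytosine was 20 reads at H3c14 and 16 at H3c15. None of their cytosines was in CCGG. The 60 bases before each RefSeq gene start are shown, in the direction of the gene and with the measured CpGs in capitals, because both genes carry nearly the same sequence.
H3c14, chr3:96246625-96246684, + strand: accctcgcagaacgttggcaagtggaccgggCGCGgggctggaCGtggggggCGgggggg
H3c15, chr3:96239128-96239187, − strand: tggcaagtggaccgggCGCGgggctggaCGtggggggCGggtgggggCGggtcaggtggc
The 250-base windows of H3c14 and H3c15 were shifted against each other, and the best ungapped match of their overlapping part had 99.6% identity. Reads of these genes could thus be exchanged, and their values are uncertain. Similarly, the H4c11 window had 95.8% identity to that of H4c12, which had no cytosine in the table. H4c3, which encodes histone H4, had 0% in 6 lines, 1.18% in line 37 and 3.70% in line 44.

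Of the 17 genes, 13 had a promoter in the RefSeq table of build GRCm38. Short motifs were searched on both strands of the 250 bases upstream. TATAAA was in 5 of the 13 (H1f5, H2bc12, H2bu2, H3c4 and H4c9), in 46.8% of 62 clustered histone genes and in 12.97% of all 27025 promoters. CCAAT, which is part of many histone promoters, was in 9 of the 13 and in 34.5% of all promoters. ATTTGCAT, the octamer of H2B promoters, was in H2bc12 alone and in 1.61% of all promoters. The MspI sequence itself was in 11 of the 13, 30.6% of the clustered histone genes and 46.8% of all promoters. The share of the 13 depends on the method, because genes enter only where DNA cut by MspI was read. A match says only that the letters are there.

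No difference between ICSI-F1 and control-F1 GS cells passed the test at a histone promoter. Reads were summed over the cytosines of each promoter with at least 3 cytosines, and a quasi-binomial model with a dispersion moderated by limma was fitted over all of them. Among the 12 members tested 0 were called at a false discovery rate of 0.05, beside 0 of 8172 promoters in the table (0%). At an unadjusted p under 0.05 there were 0 of the 12 and 2.57% of all promoters. The p of the members ran from 0.154 (H2bc12) to 0.977 (H3c7), and their adjusted p was 1.00 throughout (Benjamini-Hochberg). The ICSI-F1 mean was lower at 10 of the 12 promoters and the median difference was −1.23 percentage points, beside 56.3% of 8174 promoters lower and a median of −0.177. The 10 of 12 came mainly from library set 2: with set 1 alone 6 of the 12 were lower (median −0.130), and with set 2 alone 9 (median −2.61). The median was −2.71 without control-F1 line 37 and −2.07 without ICSI-F1 line 21, and −0.241, −0.520 and −0.682 without lines 44, 45 and 17. Without line 37, H1f2 and H2bu2 were under an unadjusted p of 0.05, and neither was called. The p-values set each difference against the spread between these lines, moderated towards that of other promoters. Library set was not a term of this fit, so the spread includes any shift between the sets.

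**Figure D4:**
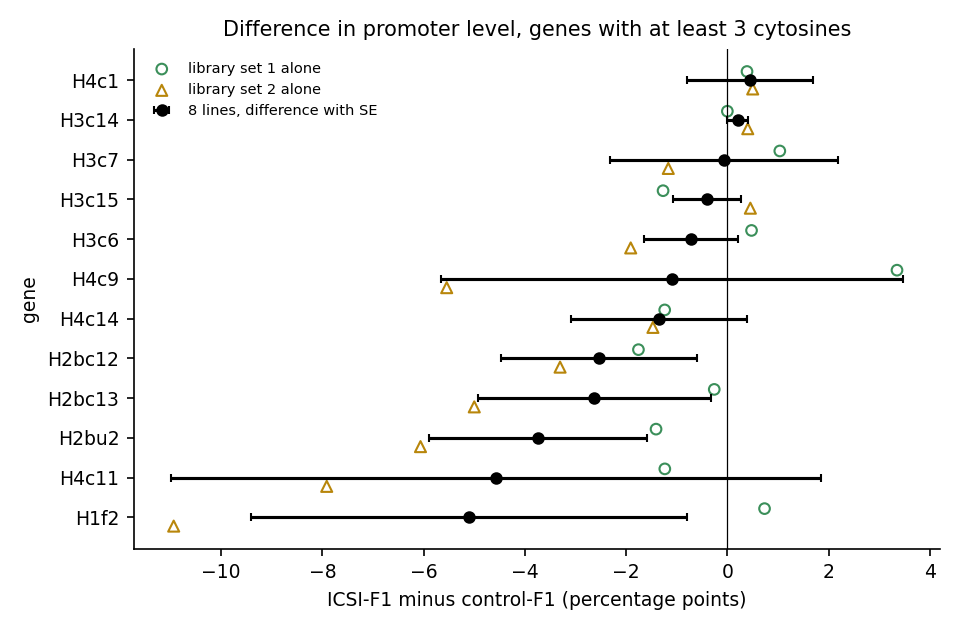
ICSI-F1 minus control-F1 difference in promoter level (percentage points, x axis) at the 12 clustered histone genes with at least 3 cytosines (y axis); black points with bars are the differences over 8 lines with their standard error, green circles library set 1 alone and gold triangles library set 2 alone. The gap between the library sets is widest at H1f2, where they differ in sign (0.735 and −10.9).

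The largest decrease was at H1f2 (Hist1h1c), a linker histone gene. Its level was 1.24%, 1.18%, 13.5% and 17.4% in control-F1 lines 29, 37, 44 and 45 and 1.06%, 2.83%, 6.13% and 2.83% in ICSI-F1 lines 11, 17, 20 and 21. Control-F1 lines 44 and 45 were high and the other 6 lines were low. The group means were 8.32% ± 8.36 and 3.21% ± 2.12 (SD, n = 4), a difference of −5.10 percentage points with a standard error of 4.31 (adjusted p = 1.00 in the fit over all promoters with limma). Within library set 1 the difference was 0.735 and within set 2 it was −10.9. It was −3.38 without line 44 and −2.09 without line 45. Over cytosines with a coverage of at least 20 in every line, after the authors' scaling, it was −0.920. That filter leaves out all 14 cytosines from 287 to 37 bases upstream, where lines 44 and 45 were high. The sequence of the promoter is shown because lines 44 and 45 had methylated reads at most of its measured cytosines. The 250 bases before the RefSeq start are given in the direction of the gene, with the measured CpGs in capitals.
H1f2, chr13:23738557-23738806, + strand: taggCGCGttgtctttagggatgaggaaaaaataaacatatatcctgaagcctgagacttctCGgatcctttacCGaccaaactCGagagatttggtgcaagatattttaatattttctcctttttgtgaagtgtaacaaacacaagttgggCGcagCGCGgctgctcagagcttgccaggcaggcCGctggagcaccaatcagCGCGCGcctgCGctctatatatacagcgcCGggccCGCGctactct
At the 14 cytosines from 287 to 37 bases upstream, line 44 had 2 to 3 methylated reads of 10 to 11 at each cytosine. Line 45 had 0 to 4 of 12 to 13, with methylated reads at 13 of the 14. The mean over these 14 was 17.4% in line 44 and 22.3% in line 45, and 0.414% to 7.74% in the other lines. At the 5 cytosines within 18 bases of the start, at 23 to 100 reads, lines 44 and 45 had 0% to 10.0%. Whether the same reads cover these cytosines was not tested. Over the whole table, 87.4% of methylated read numbers from 1 to 9 were even in lines 44 and 45. Double counting of read mates was not tested, so these few methylated reads may stem from fewer DNA fragments.

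**Figure D5:**
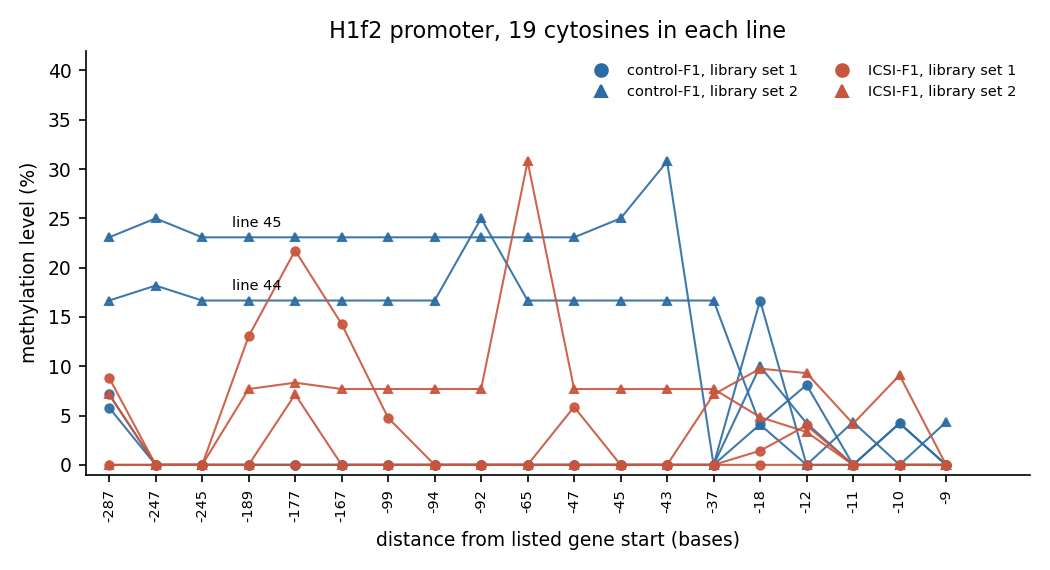
Methylation level (%, y axis) at the 19 cytosines of the H1f2 promoter in order of their distance from the listed gene start (x axis, bases, not to scale); each line is a GS cell line, with colours for the groups and symbols for the library sets. At the 14 cytosines farthest from the start, line 44 has 16.7% to 25.0% (mean 17.4%) and line 45 has 0% to 30.8% (mean 22.3%). ICSI-F1 line 20 reaches 30.8% at 1 cytosine.

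H4c11 (Hist1h4j), H2bu2 (Hist3h2ba) and H2bc13 (Hist1h2bl) were the next largest decreases. At H4c11 the control-F1 lines had 7.25%, 1.23%, 27.8% and 1.85% and the ICSI-F1 lines 3.97%, 2.04%, 9.35% and 4.44%. Line 44 stood above the others, the difference was 1.51 without it, and the groups overlapped (with all lines −4.58, standard error 6.42, adjusted p = 1.00 in the fit over all promoters with limma). H2bu2, an H2B gene of the Hist3 cluster, had 2.50%, 0.876%, 10.6% and 3.95% in control-F1 and 0%, 0.556%, 1.59% and 0.794% in ICSI-F1 lines. Here only line 20 of the ICSI-F1 group exceeded line 37 of the control-F1 group, and the difference was −3.74 percentage points (standard error 2.15). Without control-F1 line 44 the difference at H2bu2 was −1.71. H2bc13 had 1.41%, 0%, 2.08% and 10.0% in control-F1 and 0.893%, 0%, 0% and 2.08% in ICSI-F1 lines, at 4 cytosines 385 to 543 bases downstream of the gene start. Its difference of −2.63 became −0.421 without line 45. The reads behind its 0% values, summed over the 4 cytosines, were 168 in line 37, 58 in line 17 and 48 in line 20. They allow shares of up to 1.79%, 5.17% and 6.25%. The lowest depth at a single cytosine was 10 reads at H4c11, H2bu2 and H2bc13.

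Few promoters were higher in ICSI-F1 lines. H4c1 was higher by 0.445 percentage points (standard error 1.25), with 5.14%, 4.57%, 7.16% and 7.999% in control-F1 and 4.46%, 6.03%, 8.93% and 7.22% in ICSI-F1 lines. H3c14 was higher by 0.202, from the single value in line 21. The next 2 in order had lower ICSI-F1 means, H3c7 (Hist1h3f, −0.0654 percentage points) and H3c15 (−0.408). H2bc12 had the smallest p of the members, with 37.4%, 33.9%, 42.5% and 35.5% in control-F1 and 33.5%, 34.3%, 35.5% and 35.9% in ICSI-F1 lines, and the groups overlapped (difference −2.53, standard error 1.94, and −0.814 without line 44).

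The remaining genes were H4c14 (difference −1.35 percentage points), H4c9 (−1.10) and H3c6 (−0.716), and, with under 3 cytosines and outside the test, H1f5 (−0.217), H2bc21 (6.25), H3c4 (Hist1h3d, −1.76), Hist1h4n (−0.00403) and H4c3 (−1.22). H3c4 encodes an H3 and Hist1h4n an H4 histone. None of these differences exceeded the SD of the control-F1 lines, which was 13.7 at H2bc21 because of line 37. Those at H2bc21 and H4c3 exceeded the SD of the ICSI-F1 lines (4.14 and 0).

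No member promoter had groups that did not overlap (0 of 12, beside 1.33% of 8174 promoters). The study's methods keep changes above 20% and drop sites that are reversed in any sample, without saying against what a reversal is read. Here a site was called when the group means differed by more than 20 percentage points and each ICSI-F1 line lay on the same side of the control-F1 mean. This called 0 of the 173 member cytosines and 0.324% of all cytosines. With the stricter reading, in which every ICSI-F1 line lay beyond every control-F1 line, it called 0 members and 0.0761% of all cytosines. The differences at the member cytosines ran from −13.2 to 16.3 percentage points. Every ICSI-F1 line lay below every control-F1 line at 3 member cytosines, beside 0.679% of all, and above at 0, beside 0.427% of all. The 3 were at H4c9 (47 bases upstream, −6.88 percentage points), H3c6 (271 bases, −6.30) and H4c14 (303 bases, −4.43). At the H4c14 cytosine the 4 ICSI-F1 lines had 0% at 131 to 161 reads and the control-F1 lines 0.552%, 3.11%, 5.49% and 8.57%.

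Over the 173 member cytosines the mean level was 7.02%, 6.32%, 11.5% and 10.9% in control-F1 lines 29, 37, 44 and 45 and 6.39%, 7.25%, 9.52% and 8.48% in ICSI-F1 lines 11, 17, 20 and 21. Lines of library set 2 were the higher ones in both groups. The group means were 8.92% ± 2.63 and 7.91% ± 1.37 (SD, n = 4), −1.02 percentage points apart, and over all cytosines the difference was −0.147. The difference over the members was 0.15005 within library set 1 and −2.18 within set 2, and −0.511 with H1f2 left out. It was −0.163 without line 44, −0.364 without line 45, −1.88 without line 37, −1.65 without line 29, −1.55 without line 20 and −0.509 without line 11. Over cytosines with a scaled coverage of at least 20 or 30 in every line it was −0.266 or −0.206. These filters left out the 14 farther H1f2 cytosines. With cytosines in CCGG left out, the means were 2.96% ± 2.40 and 1.82% ± 1.06.

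Genes that belong to the same pathway mostly had low promoter levels, as did most promoters in the table. Of 31 genes for histone supply and chaperones, 16 were in the table, 14 of them under 10%, and 0 were called. Over all 9224 promoters 73.7% were under 10%. Npat, the coactivator of histone gene transcription, had 0.722%, 2.67%, 7.24% and 4.66% in control-F1 lines 29, 37, 44 and 45 and 0.763%, 0.254%, 0.876% and 1.27% in ICSI-F1 lines 11, 17, 20 and 21. Its ICSI-F1 mean was −3.03 percentage points from the control-F1 mean (standard error 1.41), and its unadjusted p of 0.00889 was the lowest of this list (adjusted p = 1.00 in the fit with limma). The groups overlapped at Npat through line 29. Slbp, the protein that binds the histone stem-loop, had 11.8%, and 1.09% outside CCGG. Hat1, a histone acetyltransferase, was high at 93.3% to 100% in the 8 lines, from a single cytosine outside CCGG. Of 20 genes for replication-independent histone variants, 5 were in the table, with levels of 0.661% (H2aj) to 24.6% (Macroh2a2) and 0 called. Macroh2a2 encodes a macroH2A variant of silent chromatin, and its level outside CCGG was 2.41%. Of 8 genes for the replacement of histones in spermatids, only Chd5 was in the table, at 1.57%.

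H2A-like testis genes outside the clusters were in the table and were high. H2al1o, H2al2c and H2al2b, chosen after their names were seen, belong to multicopy families on the sex chromosomes whose reads are hard to tell apart. H2al1o had 75.5% to 99.3%, H2al2c 11.99% to 70.6% and H2al2b 31.1% to 89.8% in the 8 lines, at 3 cytosines each. The groups overlapped at each of the 3 genes.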

How the data were processed

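Reads were trimmed with Trim Galore (0.5.0) and aligned to mm10 with Bismark (0.20.0) by the authors, and methylKit (1.16.0 per the labels) gave reads per cytosine. The deposited values are methylated and unmethylated read numbers that the authors scaled to a common coverage and rounded, so they are treated as scores and not as counts. Scaled coverage was at least 10 in all 8 lines, and undoing the scaling recovered 100% of values. Of methylated read numbers from 1 to 9, 77.1% to 88.0% per line were even; double counting of read mates was not tested. A level is methylated over all reads. The quasi-binomial fit (limma 3.58.1, R 4.3.3) used promoters with at least 3 sites, group as the term and a dispersion of at least 1 after moderation; it was tested on simulated data. Alternatives changed weighting, depth, strands, library set, filters and lines left out. The genes described were all testis-type members, the 5 highest and 3 lowest levels, the 4 largest rises and falls, members passing any call, and list genes called or at 20% or more; Npat, Slbp, H2aj, Chd5, Sox9, Col1a1 and the remaining members were named after their values were seen. The members and lists were chosen with earlier results of these data known.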

Additional observations from a re-analysis of the deposited data

Results flagged for a closer look

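A line was singled out where its distance to the nearest of the other 3 lines of its group, over the range of the group, exceeded Dixon's 95% critical value; chance does this in about 1 group of 20, and 7 of 50 groups were singled out. In 6 of the 7 the other 3 lines were tied at 0% or at 100%, so that any other value met the criterion. At the H3c15 promoter these were control-F1 line 37 (2.54%) and ICSI-F1 line 21 (0.909%), and at the H3c14 promoter ICSI-F1 line 21 (0.806%), each against 0%. At cytosines near 100% they were ICSI-F1 line 11 at H1f5 (96.0%), control-F1 line 45 at the H2bc12 cytosine on the + strand (95.2%) and control-F1 line 37 at the H2bc12 cytosine on the − strand (95.3%). The remaining one was control-F1 line 37 at the H2bc21 cytosine on the − strand, with 30.2% against 86.7% to 95.7% in the other 3 lines of the group. The cause was not tested.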

How the results depend on the processing

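The histone promoters gave 0 calls under each alternative of the fit, and the table as a whole gave 0 calls too, with 158 to 553 of its promoters at an unadjusted p under 0.05. The highest of these, 553, came with library set as a covariate, where H2bu2 was the only member under 0.05, as with limma on arcsine square root levels (251 promoters); H1f2 and H2bu2 were under 0.05 without control-F1 line 37. The count of member cytosines past the 20-point rule went from 0 to 5 with a threshold of 10 points (4 lower and 1 higher in ICSI-F1, beside 1.36% of all cytosines), to 3 with library set 1 alone (1.08% of all) and to 3 with library set 2 alone (0.684%); with a single line left out it was 0 to 1 (0.293% to 0.603%). The 1 was at H2bc21 without control-F1 line 44, at H4c14 without control-F1 line 45 and at H4c1 without ICSI-F1 line 17. The count of members with groups apart was 0 to 1 with a line left out, an alternative chosen after seeing the data, and the 1 was H2bu2 without line 37 or line 20, the lines through which its groups overlapped; the share over all promoters was 2.95% and 3.68% there and 2.25% to 4.34% over the 8 lines left out. With the dispersion floored before moderation, also chosen afterwards, the model per site called 0 members and, of all cytosines, 196 higher and 32 lower in ICSI-F1, against 0 when it was floored after moderation. The mean difference over member cytosines stayed within 1 SD of lines, from −2.18 to 0.15005 percentage points, and changed sign with library set 1 alone. Of 253 recomputed promoter differences 4 moved by more than the spread between lines, at H1f5 and Hist1h4n. This count cannot show stability where lines differ widely, because a large shift then stays within their spread. H1f2 ran from −10.9 to 0.735 and H2bc21 from −3.27 to 11.6 percentage points, and neither counted as moved. The comparison with testis-type genes had no value under any alternative, because none was in the table. No paired analysis was possible because the groups share no line numbers. The lowest depth of 10 reads was reached at H1f2, H4c11, H2bu2, H2bc13, H4c14 and H3c6. Upstream of H1f2 the depth was 10 to 14 reads in lines 29, 44, 45, 20 and 21.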
